A study of Mus musculus with 16 samples.

Results

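Pre-B cells that carried BCR-ABL1 and intact SHP2 were compared with pre-B cells that had lost SHP2 and carried no BCR-ABL1. These groups were chosen by their genotype labels and hold 8 of the 16 RNA-seq libraries of the series, 4 in each. By its label, each group differs from wild-type pre-B cells by a single change. The question was which genes separate the 2 changes, given that both lowered genes of the ERK feedback loop. In the labels the first group (here BCR-ABL1 cells) is BCR-ABL WT (+/+) and SHP2 WT (+/+), and the second (SHP2-null cells) is BCR-ABL NULL (-/-) and SHP2 NULL (-/-). The other 8 libraries, used here for reference, were 4 of wild-type cells (SHP2 WT, no BCR-ABL1) and 4 of SHP2-null cells with BCR-ABL1. All 4 groups are mouse pre-B cells measured as polyA RNA. The sources used here do not give the strain, the age, or how BCR-ABL1 was introduced and SHP2 removed. They also leave unsaid whether libraries of 1 group stem from different animals or cultures. P-values here thus reflect the spread between libraries, and that spread may be technical.

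BCR-ABL1 is a fusion of the BCR and ABL1 proteins whose kinase is always on, and it transforms B-lineage precursors into acute lymphoblastic leukaemia. SHP2, encoded by Ptpn11, is a tyrosine phosphatase that binds activated receptors and their adaptors and carries their signal to RAS, RAF, MEK and ERK. Active ERK induces its own brakes, among them the dual-specificity phosphatases Dusp6 and Dusp7, which remove phosphate from ERK-type kinases, and the Sprouty and Spred proteins, which act upstream on RAS and RAF. Transcript levels of these genes are therefore commonly read as a record of ERK output. Pre-B cells depend on interleukin 7, whose receptor chain is encoded by Il7r and signals through JAK kinases and STAT5.

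Values were FPKM (read fragments corrected for transcript length and for each library's mapped total), and the files give no counts, so depth is unknown. Of 23279 gene symbols, 9993 reached 1 FPKM in at least 4 of the 8 libraries and were tested with limma on log2(FPKM + 1). Differences are BCR-ABL1 minus SHP2 null on that scale, which understates the change of low genes, with Benjamini-Hochberg adjustment over all 9993 genes. A gene is said to have risen, fallen or changed where the adjusted p was below 0.05. With that rule 100 genes separated the groups, which is 1% of those tested. Of these, 42 (0.42%) were higher in BCR-ABL1 cells and 58 (0.58%) were higher in SHP2-null cells, and 14 differed by at least 2-fold on this scale (4 higher and 10 lower in BCR-ABL1 cells). At an unadjusted p below 0.05 there were 957 genes, where 499.65 would be expected by chance. The median difference over all genes was 0.01. With the replicate number as a block the count was 260 (2.6%; 117 or 1.17% higher and 143 or 1.43% lower), including all 100. Against wild-type cells, whose 4 libraries both contrasts share, 422 genes (4.22%; 2.77% higher and 1.45% lower) were called in BCR-ABL1 cells and 130 (1.3%; 0.931% higher and 0.37% lower) in SHP2-null cells.

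**Figure D1:**
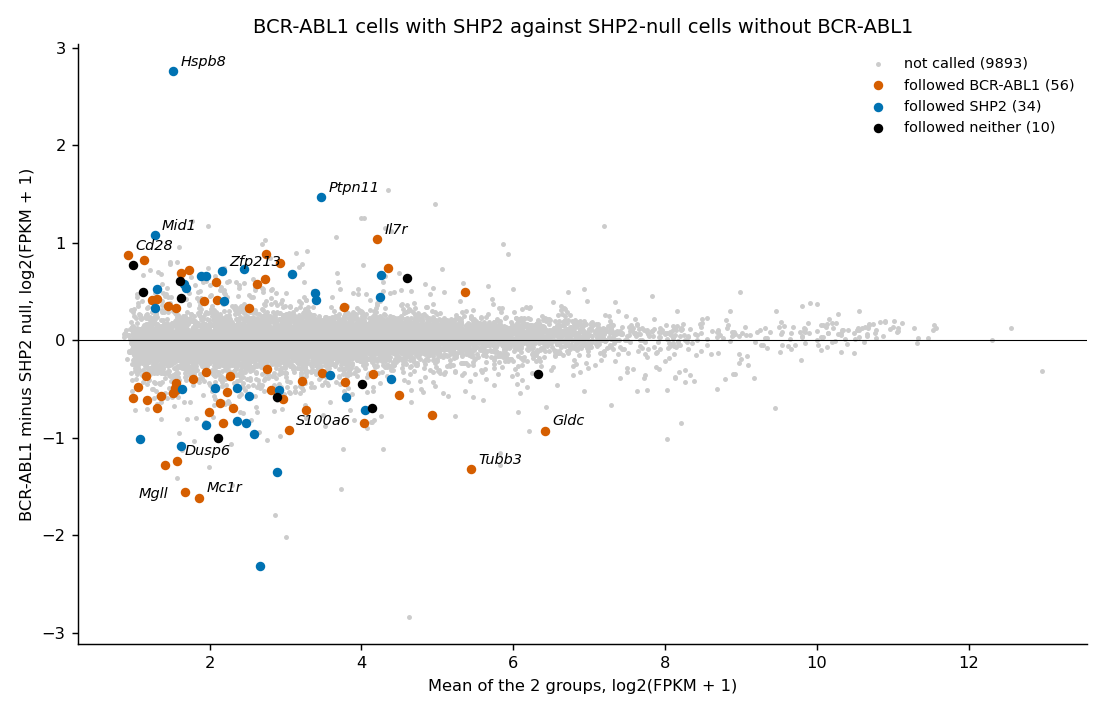
The difference between BCR-ABL1 and SHP2-null cells (vertical axis, log2(FPKM + 1)) is plotted against the mean of both groups (horizontal axis, same scale) for 9993 genes, 1 point per gene. The 100 called genes are coloured by whether they followed BCR-ABL1, SHP2 or neither in the other 2 groups, and Hspb8, Ptpn11, Mgll and Mc1r lie far from 0.

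A single library decided part of that count. Without BCR-ABL1 replicate 0 it was 43, without BCR-ABL1 replicate 2 it was 49, and without SHP2-null replicate 0 it was 60. SHP2-null replicate 2 stood apart from its group in other ways. The macrophage and granulocyte lysozyme gene Lyz2 read 403 FPKM there, against 6.08, 12.5 and 34.3 in the other SHP2-null libraries and 1.90 to 6.87 in BCR-ABL1 cells. Cd68, a lysosomal protein of macrophages, read 12.4 FPKM there and 1.18 to 2.36 in the other 3. The 13 myeloid markers in the table summed to 445 FPKM in that library, of which Lyz2 alone made up 403. They summed to 8.64, 15.9 and 40.2 in the other SHP2-null libraries and to 5.28 to 28.4 in BCR-ABL1 cells. Of these markers 6 were below 1 FPKM in all 8 libraries and 3 were tested. None was called, and 1 of the 3 was higher in BCR-ABL1 cells (log2 0.96), so the sum mainly reflects 1 gene. Blk, a SRC-family kinase of B cells, read 12 FPKM there and 54.6 to 64.2 in the others, and the recombinase gene Rag1 (named after its values were seen) read 25 FPKM there and 3.41 to 4.45 in the others. The part of these values in the results was not tested. Without this library 76 genes were called, 59 of them among the 100.

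All 14 pre-B markers were expressed above the minimum in these libraries, and their sum ran from 3323 to 3664 FPKM in BCR-ABL1 cells and from 3264 to 3641 in SHP2-null cells. Markers of T and NK cells summed to at most 8.74 FPKM in any of the 8 libraries, those of mast cells and basophils to at most 10.1, those of erythroid cells and megakaryocytes to at most 1.08, and those of stroma and endothelium to at most 16.7. In bulk RNA, fewer cells of a type and less RNA per cell cannot be told apart.

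Ptpn11 itself separated the groups as the labels say. It read 17.2, 17.1, 15.7 and 18 FPKM in BCR-ABL1 replicates 0 to 3 and 7.43, 6.81, 2.87 and 6.02 FPKM in SHP2-null replicates 0 to 3, so the groups did not overlap. The means were 17 ± 0.957 and 5.79 ± 2.03 FPKM (SD, n = 4), so 34.02% remained (39.7% without SHP2-null replicate 2). The two-sided exact permutation p was 0.0286, the lowest possible with 4 libraries a side. The sources used here do not say which exons the null allele lacks, so this remainder is no measure of protein. Abl1 averaged 15.3 ± 2.21 FPKM in BCR-ABL1 cells and 17.9 ± 1.41 in SHP2-null cells, with overlapping values (limma adjusted p = 0.531, and 0.0268 with array weights, which give each library a weight by its own spread). Bcr averaged 6.88 ± 1.14 and 10 ± 1.57 FPKM, with every BCR-ABL1 library below every SHP2-null library. Its limma adjusted p was 0.0877, and it was called with the replicate block (0.0493) and with array weights (0.0368). At the level of genes, FPKM cannot tell fusion transcripts from normal Abl1 and Bcr.

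Within a list of ERK feedback and response genes, Dusp6, Epha2 and Spry2 were lower in BCR-ABL1 cells than in SHP2-null cells, and no member was called in the other direction. Dusp6 was also below wild type in both single changes, whereas Epha2 and Spry2 passed the test against wild type in BCR-ABL1 cells and not in SHP2-null cells. The list held 25 genes, all in the table. Of these, 9 were tested, 3 of them fell (background 0.58%), and 6 were not called. The other 16 did not pass the filter, and 14 of these were below 1 FPKM in all 8 libraries. Dusp6 reached 1 FPKM in 1 BCR-ABL1 library and in 4 SHP2-null libraries, and Spry2 in 2 and 4, so both passed the filter mainly through the group in which they were higher. The count is a description of the list, which was drawn up with results of these data known.

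The sequences just before the start sites of the 3 called ERK genes are shown because these genes fell together. They are the 250 bases before the RefSeq start on GRCm38.p6, written 5′ to 3′ on the strand of the gene. Capitals mark a match to the cAMP response element TGACGTCA, the AP-1 motif TGANTCA or the ETS motif CCGGAAGT on either strand.
Dusp6, chr10:99262981-99263230, plus strand: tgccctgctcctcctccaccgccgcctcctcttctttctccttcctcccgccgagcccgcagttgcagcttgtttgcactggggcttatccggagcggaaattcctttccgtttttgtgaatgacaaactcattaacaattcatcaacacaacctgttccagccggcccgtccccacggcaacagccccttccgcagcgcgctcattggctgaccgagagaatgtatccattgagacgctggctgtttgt
Spry2, chr14:105896820-105897069, minus strand: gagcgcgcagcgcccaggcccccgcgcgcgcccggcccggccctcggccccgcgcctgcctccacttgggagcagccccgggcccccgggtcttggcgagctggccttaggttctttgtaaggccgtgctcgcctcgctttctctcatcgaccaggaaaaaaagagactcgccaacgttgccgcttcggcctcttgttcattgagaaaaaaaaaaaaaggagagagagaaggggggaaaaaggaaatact
Epha2, chr4:141300971-141301220, plus strand: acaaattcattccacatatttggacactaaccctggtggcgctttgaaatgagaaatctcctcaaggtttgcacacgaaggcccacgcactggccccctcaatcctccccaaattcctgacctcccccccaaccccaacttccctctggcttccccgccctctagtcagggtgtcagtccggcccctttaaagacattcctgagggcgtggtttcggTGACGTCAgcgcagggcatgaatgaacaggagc
The search found 1 match, a cAMP response element in the Epha2 window, a motif that 1.55% of all 32851 windows of this length hold. The ETS motif was in 2.88% and the AP-1 motif in 6.75% of all windows, and neither was in these 3. A match is a run of letters, and its absence says nothing of binding.

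Dusp6, the phosphatase that acts on ERK, showed the widest gap of the list. It read 0.710, 0.888, 0.786 and 1.11 FPKM in BCR-ABL1 replicates 0 to 3 and 4.88, 3.68, 1.21 and 5.12 FPKM in SHP2-null replicates 0 to 3. The groups did not overlap, and the SHP2-null library closest to the BCR-ABL1 cells was replicate 2, the one with high Lyz2 and the least Ptpn11. The SHP2-null mean was 4.27 times that of BCR-ABL1 cells, a log2 difference of -1.23 ± 0.24 (SE, limma adjusted p = 0.0217). Wild-type cells averaged 11.3 ± 2.53 FPKM and SHP2-null cells with BCR-ABL1 averaged 0.406 ± 0.106 FPKM (SD, n = 4), so the group means ran downward from wild type to SHP2 null, BCR-ABL1 and both changes, with no overlap between neighbours. Against the wild type, which both contrasts share, Dusp6 fell by 2.70 on the log2 scale in BCR-ABL1 cells (adjusted p = 1.46e-05) and by 1.46 in SHP2-null cells (adjusted p = 0.00526). Without SHP2-null replicate 2 the difference between the single changes was -1.56 with a limma adjusted p of 4.09e-05. The call was lost without BCR-ABL1 replicate 0 (0.0841) or 2 (0.0621) and without SHP2-null replicate 0 (0.0773), 1 (0.0550) or 3 (0.0719), and when only the 8 libraries were fitted (0.160, and 0.0649 with the replicate block as well).

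Dusp7, a close relative of Dusp6, read 2.96, 3.13, 3.14 and 3.71 FPKM in BCR-ABL1 cells and 5.90, 6.27, 3.05 and 6.62 FPKM in SHP2-null cells. Only SHP2-null replicate 2 lay among the BCR-ABL1 libraries. The difference was -0.57 ± 0.16 and was not called (limma adjusted p = 0.143), while without that library it was -0.78 and was called (0.00162), as it was with array weights (0.00211). Wild-type cells averaged 10.1 ± 0.924 FPKM, and Dusp7 fell below that level in both BCR-ABL1 cells (log2 -1.38, adjusted p = 0.000151) and SHP2-null cells (-0.81, 0.0203).

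Epha2, an ephrin receptor induced by ERK signalling, separated the single changes in another way. It read 5.34, 6.68, 6.79 and 7.29 FPKM in BCR-ABL1 cells and 9.80, 10.5, 14.5 and 11 FPKM in SHP2-null cells. The groups did not overlap, and the difference was -0.72 ± 0.15 (limma adjusted p = 0.0281). SHP2-null cells were close to the wild-type mean of 11.8 ± 1.39 FPKM (log2 -0.05, adjusted p = 0.890), whereas BCR-ABL1 cells were below it (-0.77, 0.00773). The call was lost without BCR-ABL1 replicate 0 (0.114), 1 (0.0518) or 2 (0.0621), without SHP2-null replicate 2 (0.0693) or 3 (0.0671), when only the 8 libraries were fitted (0.0659) and without the filter (0.0534).

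Spry2, a Sprouty inhibitor of receptor signalling to RAS, followed the same order at low levels. It read 0.907, 1.02, 1.08 and 0.870 FPKM in BCR-ABL1 cells and 1.54, 1.43, 1.70 and 1.49 FPKM in SHP2-null cells, with no overlap. The wild-type mean was 1.53 ± 0.276 FPKM. The difference of -0.37 ± 0.08 was close to the threshold (limma adjusted p = 0.0449), and leaving out any 1 of the 8 libraries moved the adjusted p past it, to between 0.0744 and 0.157. It was 0.121 when only the 8 libraries were fitted (0.106 with the replicate block as well). Dusp6, Epha2 and Spry2 thus all lost their calls when only the 8 libraries were fitted without the block.

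The other members of the feedback loop did not separate the groups in the test. Spry1 averaged 1.37 ± 0.137 FPKM in BCR-ABL1 cells and 1.46 ± 0.485 in SHP2-null cells (limma adjusted p = 0.957), and Spred1, which restrains RAF activation, averaged 7.67 ± 0.598 and 8.91 ± 2.80 FPKM (0.799, and 0.0377 with array weights). Both overlapped, and both had higher means in wild-type cells, 2.35 ± 0.374 for Spry1 and 14.8 ± 2.14 for Spred1. Dusp5, a nuclear ERK phosphatase, was the single tested member with a positive difference, 0.22 ± 0.19 (0.752). Mafk, a small MAF transcription factor, was 13.5, 13.5, 14.1 and 13.7 FPKM in SHP2-null cells and 8.99, 9.99, 12.2 and 10.7 in BCR-ABL1 cells without overlap, and was called only with the replicate block (adjusted p = 0.185 without it and 0.0322 with it) and with array weights (0.0461).

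Below the filter, Spred2, a relative of Spred1, read 0.241, 0.543, 0.246 and 0.396 FPKM in BCR-ABL1 cells and 1.02, 0.822, 0.825 and 0.751 FPKM in SHP2-null cells. These values did not overlap, and without the filter the limma adjusted p was 0.0449 (0.66% of 18172 genes were called there). Etv5, an ETS transcription factor downstream of ERK, read 0.483, 0.695, 0.339 and 0.476 FPKM in BCR-ABL1 cells and 2.82, 2.30, 0.214 and 0.887 FPKM in SHP2-null cells. SHP2-null replicate 2 was again the lowest, the groups overlapped, and the adjusted p without the filter was 0.454. Wild-type cells averaged 2.03 ± 0.401 FPKM of Spred2 and 5.95 ± 1.10 FPKM of Etv5, more than either single change.

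**Figure D2:**
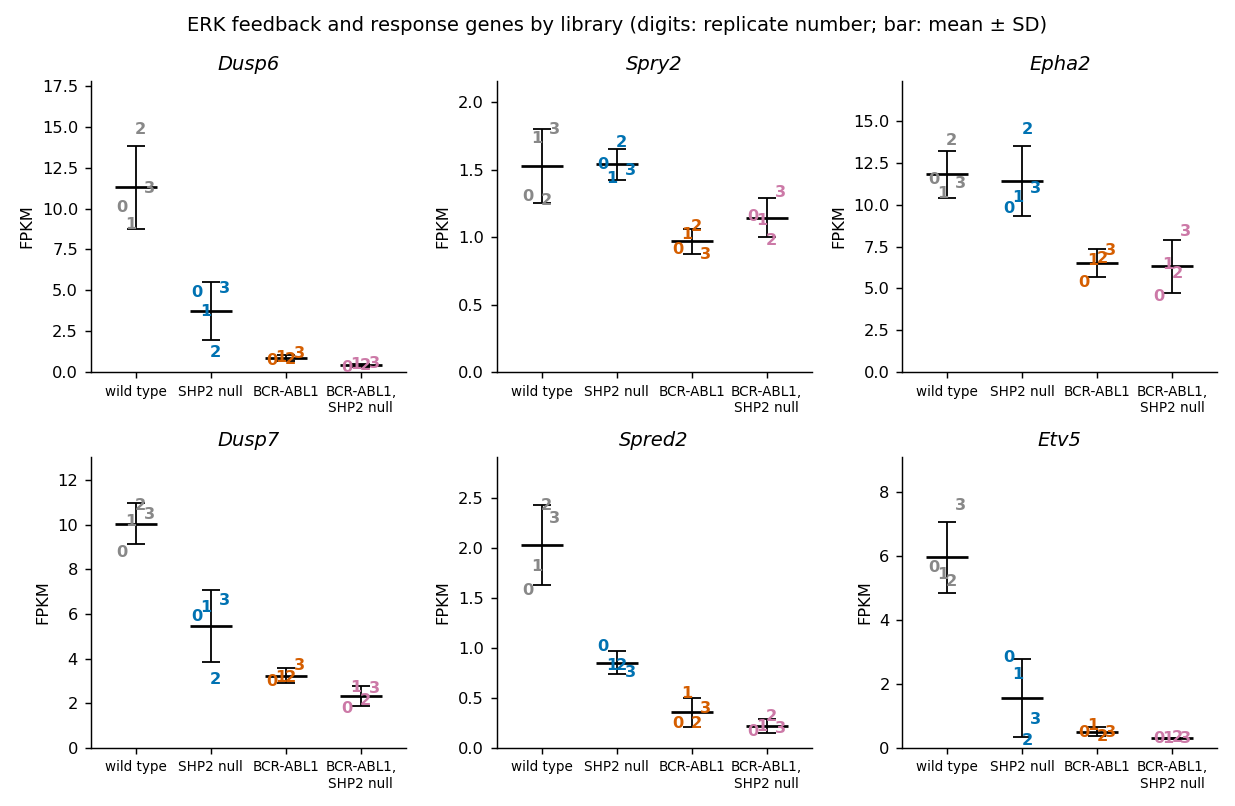
FPKM of 6 ERK feedback and response genes in the 16 libraries, with digits for the replicate number and bars for the mean and SD of each group of 4. Dusp6, Dusp7, Spred2 and Etv5 have their highest means in wild-type cells, while Epha2 and Spry2 have like means in wild-type and SHP2-null cells (11.8 and 11.4 FPKM, 1.53 and 1.54 FPKM), and SHP2-null replicate 2 is the lowest of its group for Dusp6, Dusp7 and Etv5.

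The 100 genes that separated the groups were sorted by the means of the other 2 groups, a sorting chosen after values were seen. The contrast did not compare those 8 libraries, but they shared in the fit's estimate of spread. They thus had a part in which genes were called. A gene was said to follow BCR-ABL1 where the mean of SHP2-null cells with BCR-ABL1 lay nearer to BCR-ABL1 cells and that of wild-type cells nearer to SHP2-null cells, and to follow SHP2 in the opposite case. By this rule 56 genes followed BCR-ABL1 (20 higher and 36 lower with it), 34 followed SHP2 (17 higher and 17 lower with it), and 10 followed neither. The 8 libraries on one side all lay above the 8 on the other for 40 of the 56 and for 28 of the 34. These counts are no support for the classes. None of the 100 genes overlapped between the 2 groups compared, and the other 2 group means set the class, so such separation was partly built in. The split moved with single libraries, to 12 and 25 genes without BCR-ABL1 replicate 0, to 20 and 23 without BCR-ABL1 replicate 2, and to 41 and 27 without SHP2-null replicate 2. It also moved with the processing, to 7 and 13 when only the 8 libraries compared were fitted and to 16 and 13 with a mean of at least 5 FPKM. With the replicate block it was 154 and 62, and with array weights 495 and 116.

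Among genes that followed BCR-ABL1 and were higher with it, Il7r had the largest rise on the log2(FPKM + 1) scale. The ratio of means was 2.12 for Il7r, below that of the lower genes Cd28 (3.75) and Khdrbs3 (2.93). Il7r read 24.8, 21.9, 25.1 and 29.4 FPKM in BCR-ABL1 cells and 9.88, 11.6, 15.7 and 10.6 FPKM in SHP2-null cells, a log2 difference of 1.04 ± 0.12 (limma adjusted p = 0.000359), and it was called in all 20 alternatives. The groups lay well apart, with SHP2-null replicate 2 the highest of its group. Wild-type cells averaged 6.29 ± 0.754 FPKM and SHP2-null cells with BCR-ABL1 25 ± 1.76 FPKM. Il7r was therefore above wild type in both single changes, by 1.85 with BCR-ABL1 (adjusted p = 1.13e-06) and by 0.81 with loss of SHP2 (0.00274). The other 11 tested genes of the receptor, JAK and STAT list were not called in this comparison, where the list's median was -0.11.

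Cd28, a co-stimulatory receptor best known from T cells, read 1.93, 1.70, 1.24 and 1.35 FPKM in BCR-ABL1 cells and 0.274, 0.389, 0.865 and 0.129 FPKM in SHP2-null cells (log2 0.87 ± 0.15, limma adjusted p = 0.00892). Khdrbs3, an RNA-binding regulator of splicing, read 2.09, 1.77, 2.34 and 1.49 FPKM and 0.537, 0.784, 0.937 and 0.368 FPKM (0.82 ± 0.13, adjusted p = 0.00579). Both were below 1 FPKM in every SHP2-null library and passed the filter through the BCR-ABL1 libraries, as 11 of the 100 called genes did through one group or the other. Angptl4, a secreted inhibitor of lipoprotein lipase, read 3.29, 3.07, 3.03 and 2.31 FPKM against 1.54, 1.81, 1.24 and 1.16 FPKM (0.69 ± 0.12, adjusted p = 0.00857). None of these 3 overlapped between the groups, and their calls were lost only in fits of the 8 libraries alone (adjusted p = 0.0786, 0.0516 and 0.0542, and 0.0637 for Cd28 with the replicate block as well).

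Sla, the Src-like adaptor that dampens antigen receptor signalling, was 25 ± 3.69 FPKM in BCR-ABL1 cells and 14.9 ± 4.29 in SHP2-null cells (SD, n = 4; limma adjusted p = 0.0406). Its call was lost without BCR-ABL1 replicate 0 (0.167), 1 (0.0586), 2 (0.0919) or 3 (0.0772) and without SHP2-null replicate 3 (0.0945). It was also lost in fits of the 8 libraries alone (0.247, and 0.0945 with the replicate block as well), without the filter (0.0783) and with a mean of at least 5 FPKM (0.0657). Bex6 was 8.17 ± 2.73 and 3.85 ± 0.655 FPKM (adjusted p = 0.0289), and its call was lost without BCR-ABL1 replicate 0 (0.0885) or 2 (0.0846) and without SHP2-null replicate 0 (0.0510), 2 (0.0709) or 3 (0.0941), with the 8 libraries alone (0.121) and without the filter (0.0594). Members of the Bex family may share reads, so its value is uncertain.

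The genes that were lower with BCR-ABL1 included larger differences. Mgll, monoacylglycerol lipase, read 0.723, 0.731, 0.855 and 0.997 FPKM in BCR-ABL1 cells and 3.56, 2.74, 7 and 5.12 FPKM in SHP2-null cells, 5.57 times more on average (log2 -1.56 ± 0.19, limma adjusted p = 0.000562). All BCR-ABL1 libraries were below 1 FPKM and all SHP2-null libraries above 2, and the latter overlapped the wild-type range of 4.11 to 7.46 FPKM. Myo7a, an unconventional myosin, varied little within each group, with 2.19, 2.18, 1.81 and 2.12 FPKM against 3.95, 3.86, 4.39 and 4.24 FPKM (-0.73 ± 0.08, adjusted p = 0.000183). Mgll and Myo7a were called in every alternative in which they were tested.

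Mc1r, the melanocortin receptor that raises cAMP, read 0.849, 1.03, 0.865 and 1.40 FPKM in BCR-ABL1 cells and 3.83, 3.21, 7.86 and 7.11 FPKM in SHP2-null cells (log2 -1.61 ± 0.23, limma adjusted p = 0.00143). Its neighbour Tubb3, a beta-tubulin best known from neurons, read 20.1, 26.8, 25.4 and 31.3 FPKM and 48.1, 43.7, 93.7 and 91.8 FPKM (-1.32 ± 0.25, adjusted p = 0.0189). In both genes SHP2-null replicates 2 and 3 were higher than replicates 0 and 1. The genes lie on the same strand of chromosome 8 (GRCm38, chr8:123407107-123410744 and chr8:123411424-123422015), 680 bases apart, and the sources used here do not give how reads were assigned between them, so the 2 values may not be independent. The Tubb3 call was lost without BCR-ABL1 replicate 0 (0.0841) or 2 (0.0541), without SHP2-null replicate 2 (0.0573) or 3 (0.0646) and with the 8 libraries alone (0.104).

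Further genes lower with BCR-ABL1 were Gldc, the glycine decarboxylase of the glycine cleavage system, S100a6, a calcium-binding protein, Pcdh9, a protocadherin, and Nkd2, an inhibitor of WNT signalling. Gldc read 50.8, 58, 64.4 and 69.9 FPKM in BCR-ABL1 cells and 99, 93.2, 130 and 149 FPKM in SHP2-null cells (log2 -0.93 ± 0.16, limma adjusted p = 0.0103). S100a6 read 3.89, 5.02, 6.11 and 4.98 FPKM against 8.79, 11.1, 11.9 and 9.63 FPKM (-0.92 ± 0.17, adjusted p = 0.0144). Both had no overlap, and both calls were lost without BCR-ABL1 replicate 0 (0.0509 and 0.0664), that of Gldc also with the 8 libraries alone (0.0659). Pcdh9 was 11.2 ± 2.34 and 21 ± 4.37 FPKM (SD, n = 4; limma adjusted p = 0.0222) and was not called without BCR-ABL1 replicate 0 (0.0864) or 1 (0.0518) or SHP2-null replicate 2 (0.0655) or 3 (0.0737), or with the 8 libraries alone (0.116). Nkd2 was 0.633 ± 0.242 and 3.31 ± 2.02 FPKM (limma adjusted p = 0.0298) and was not called without BCR-ABL1 replicate 0 (0.114), 1 (0.0745) or 2 (0.0727) or SHP2-null replicate 2 (0.0706) or 3 (0.0966), with the 8 libraries alone (0.172) or without the filter (0.0636).

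**Figure D3:**
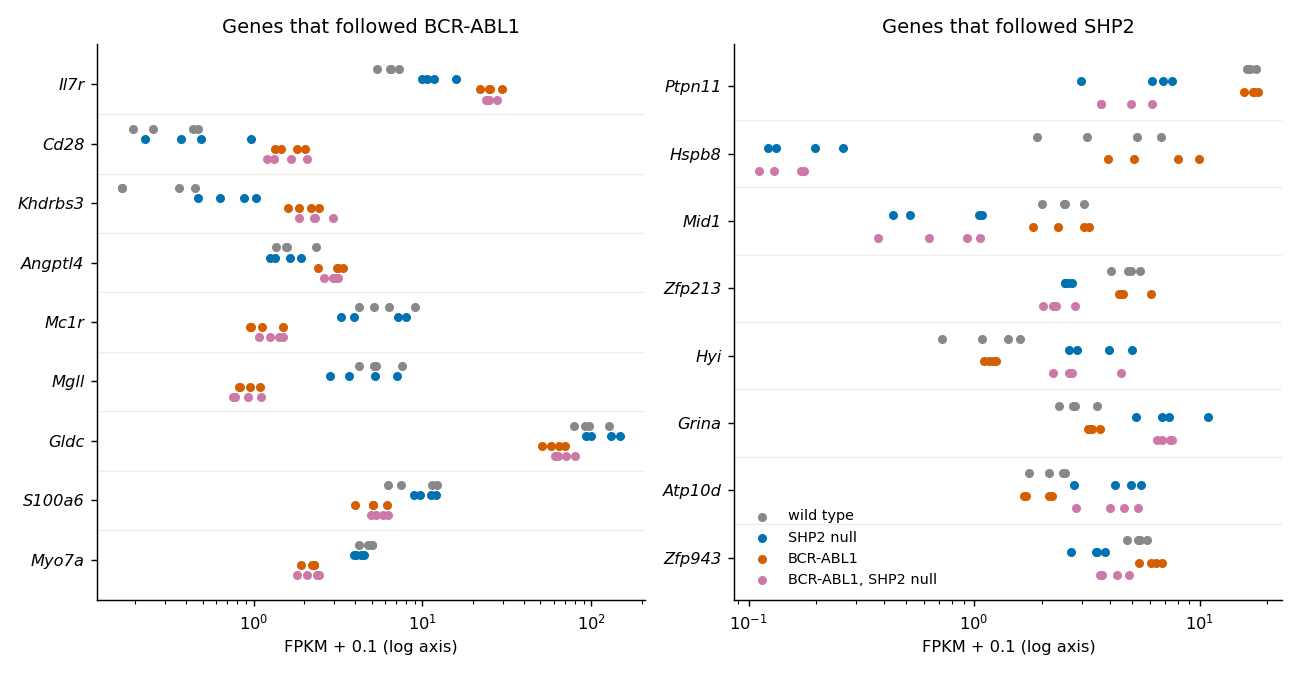
FPKM plus 0.1 (log axis) of 17 called genes in the 16 libraries, 1 point per library, coloured by group. In the left panel both groups with BCR-ABL1 lie together, and in the right panel both SHP2-null groups lie together, for example Il7r at means of 25.3 and 25 FPKM and Hspb8 at 0.0782 and 0.0469 FPKM.

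Among genes that followed SHP2, the small heat shock protein gene Hspb8 had the widest gap. It read 3.81, 5.04, 7.96 and 9.86 FPKM in BCR-ABL1 cells and 0.0319, 0.0225, 0.0965 and 0.162 FPKM in SHP2-null cells (log2 2.76 ± 0.27, limma adjusted p = 9.03e-05). Every SHP2-null library was far below every library with SHP2, and SHP2-null cells with BCR-ABL1 averaged 0.0469 ± 0.0316 FPKM. The other 9 tested heat shock genes were not called. Mid1, a ubiquitin ligase of microtubules, was 2.52 ± 0.652 FPKM in BCR-ABL1 cells and 0.673 ± 0.343 in SHP2-null cells (SD, n = 4; limma adjusted p = 0.00546). Its call was lost only when the 8 libraries alone were fitted (0.0516).

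Other genes were higher where SHP2 was lost. Grina, a membrane protein of the TMBIM family, read 3.15, 3.50, 3.11 and 3.23 FPKM in BCR-ABL1 cells and 6.74, 7.21, 10.8 and 5.15 FPKM in SHP2-null cells (log2 -0.96 ± 0.14, limma adjusted p = 0.00336). Hyi, a hydroxypyruvate isomerase, read 1.15, 1.01, 1.11 and 1.06 FPKM against 4.93, 2.55, 2.75 and 3.86 FPKM (-1.09 ± 0.18, adjusted p = 0.00787). Both groups were apart in both genes, and wild-type cells averaged 2.76 ± 0.480 FPKM of Grina and 1.10 ± 0.388 FPKM of Hyi, near the BCR-ABL1 cells. The Grina call was lost only when the 8 libraries alone were fitted (0.0659). Atp10d, a phospholipid flippase, was 1.83 ± 0.294 and 4.26 ± 1.19 FPKM (adjusted p = 0.0224), and its call was lost without BCR-ABL1 replicate 0 (0.0515), 2 (0.0727) or 3 (0.0721) and without SHP2-null replicate 0 (0.0616), 1 (0.0684) or 2 (0.0655), and with the 8 libraries alone (0.0956). The zinc finger genes Zfp213 and Zfp943 were lower without SHP2, at 2.50 ± 0.0927 against 4.77 ± 0.805 FPKM and 3.28 ± 0.477 against 6.06 ± 0.595 FPKM (limma adjusted p = 0.00143 and 0.00139). Zinc finger genes of clusters may share reads, so these values are uncertain.

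Many genes that followed SHP2 lie near Ptpn11. Of the 31 with a position in the GENCODE annotation of GRCm38, 15 (48.4%, Ptpn11 among them) start within 20 Mb of Ptpn11 on chromosome 5, where 3.07% of the 9386 tested genes with a position lie, and 7 (22.6%) start between 14 and 34 Mb on chromosome 17, where 2.21% lie. The corresponding shares among the 55 positioned genes that followed BCR-ABL1 were 1.82% and 5.45%. Hspb8 (chr5:116408491-116422864) is in the first region, and Zfp213 (chr17:23556767-23564238) and Zfp943 (chr17:21962552-22071168) are in the second. Angptl4, which followed BCR-ABL1, and Zfp948, which followed neither change, are also in the second. Mid1 lies on chromosome X, Hyi on chromosome 4 and Grina on chromosome 15, outside both. Atp10d lies on chromosome 5 but outside the first region, at -48.9 Mb from the start of Ptpn11. Both windows were set with earlier results of these data known. Loss of SHP2 and the chromosome segment around the Ptpn11 allele cannot be told apart in this design. No value here separates the 2, for these genes or for the chromosome 17 region.

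**Figure D4:**
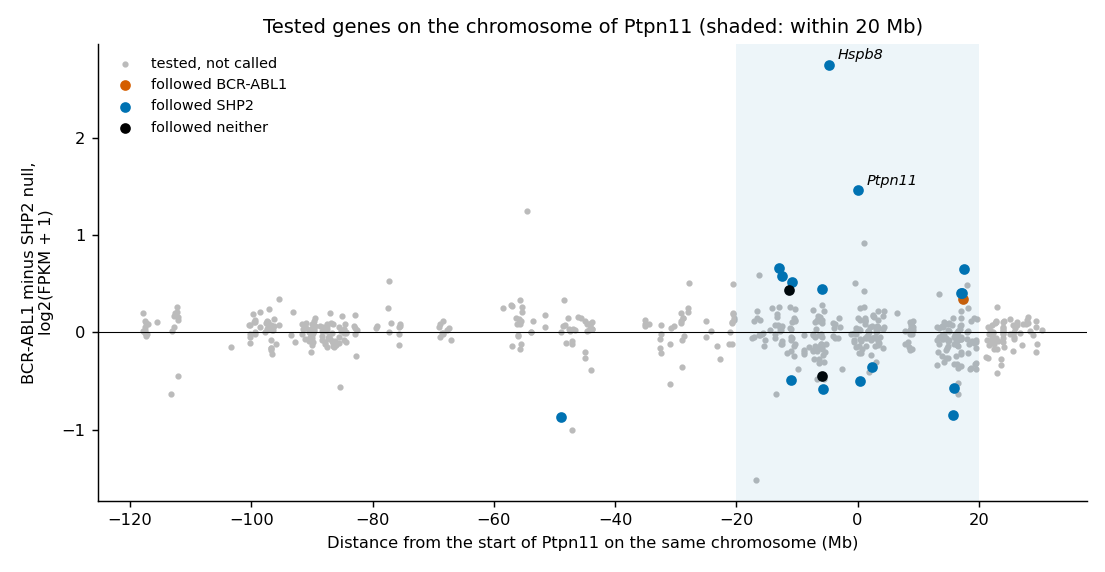
The difference between BCR-ABL1 and SHP2-null cells (vertical axis, log2(FPKM + 1)) is plotted against the distance of each tested gene's start from that of Ptpn11 in Mb along chromosome 5. The shaded region spans 20 Mb on each side and holds 15 of the called genes that followed SHP2, in both directions.

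Zfp948 and Rnase12 were among the 10 genes that followed neither change. Zfp948 read 1.40, 1.40, 1.77 and 1.81 FPKM in BCR-ABL1 cells and 0.562, 0.419, 0.453 and 0.641 FPKM in SHP2-null cells (log2 0.77 ± 0.09, limma adjusted p = 0.000240). Wild-type cells averaged 0.730 ± 0.106 FPKM and SHP2-null cells with BCR-ABL1 0.842 ± 0.151 FPKM, so BCR-ABL1 cells lay above the other 3 groups, and as a zinc finger gene of a cluster it may share reads. Rnase12, of the ribonuclease A family, read 1.61, 1.78, 2.82 and 1.94 FPKM in BCR-ABL1 cells and 5.29, 5.83, 3.58 and 5.73 FPKM in SHP2-null cells (-1.01 ± 0.17, adjusted p = 0.00858). Wild-type cells averaged 11.6 ± 2.72 FPKM and SHP2-null cells with BCR-ABL1 3.41 ± 0.546 FPKM, so wild-type cells lay above the other 3 groups, and the latter group overlapped both single changes. Its call was lost only in the replicate-block fit of the 8 libraries alone (0.0570).

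Few members of the other gene lists were called, and few of all tested genes were (1%). At that share a list of this size would often hold no call, so its absence does not show that a pathway was unchanged. Of 22 gene lists, 17 had no called member. The ERK list was 1 of the other 5, and in the remaining 4 the call was Ptpn11, Il7r (in 2 lists) or Hspb8, described above. Without SHP2-null replicate 2, 14 lists had no called member, and the listed genes called included Bok, Cd69 (named after its values were seen), Dusp6, Dusp7, Hspb8, Il7r and Ptpn11. No member was called among 11 tested genes of the MYC, MAX and MXD network (median difference 0.00), 29 of MYC targets and ribosome biogenesis (0.08), 28 of DNA replication (0.03), 22 of mitosis (0.10), 16 p53 targets (-0.01), 14 interferon response genes (-0.01), 18 of cholesterol synthesis (0.06) and 21 of glycolysis (0.14), beside 1% and a median of 0.01 over all genes. Myc, which drives growth, averaged 33.4 ± 9.18 FPKM in BCR-ABL1 cells and 33.9 ± 6.28 in SHP2-null cells (log2 -0.04 ± 0.19, limma adjusted p = 0.971). Its antagonists Mxd3 (12.8 ± 1.23 and 13.4 ± 0.716 FPKM) and Mxd4 (11.4 ± 1.47 and 12.1 ± 2.86 FPKM) both differed by -0.07 (0.897 and 0.908). In all 3 genes the groups overlapped.

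**Figure D5:**
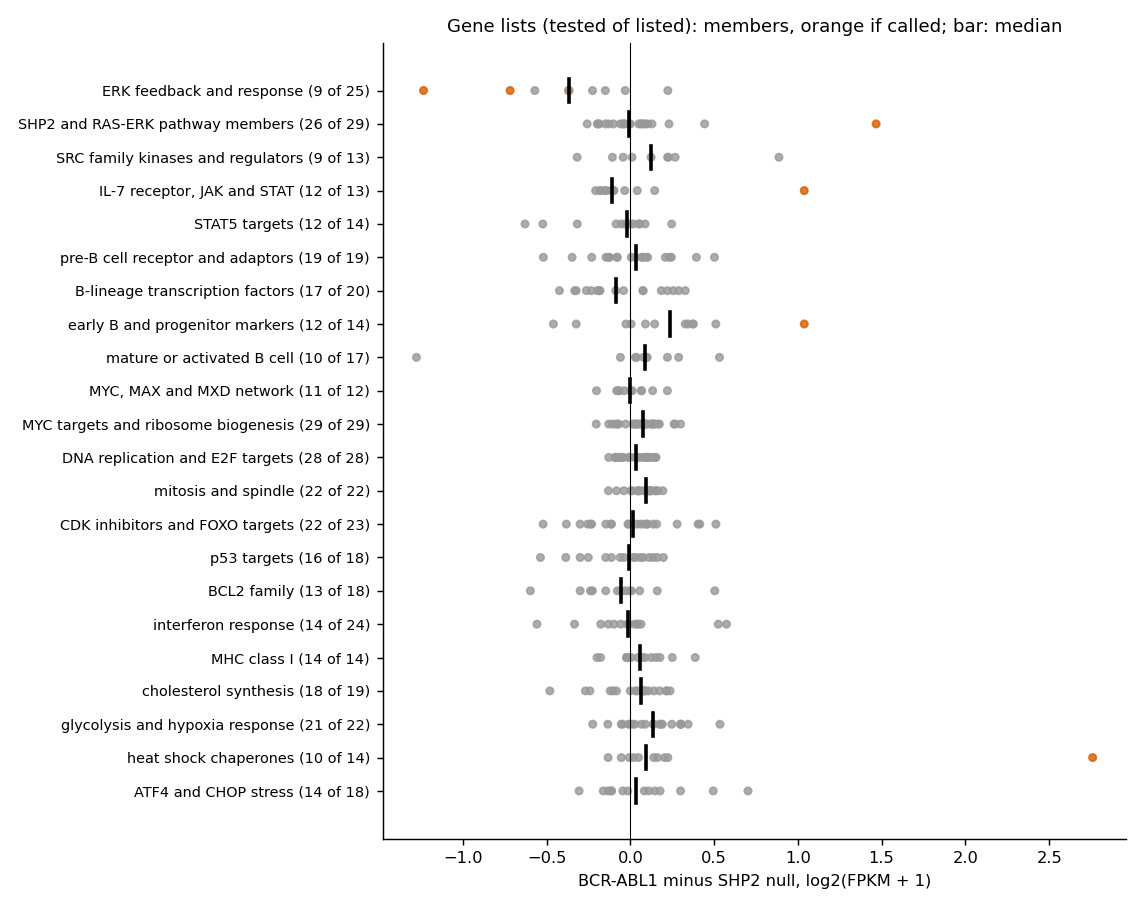
Differences between BCR-ABL1 and SHP2-null cells (horizontal axis, log2(FPKM + 1)) of the tested members of 22 gene lists, 1 point per gene, orange where called, with a bar at the median. Called members are Dusp6, Epha2 and Spry2 on the left and Ptpn11, Il7r (in 2 lists) and Hspb8 on the right.

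Several immune and signalling genes were not among the 100 but were called once libraries with the same replicate number were matched. They are given here because of those calls. The calls use the same pairs, so the counts of pairs are no separate support. Cd74, the invariant chain of MHC class II, read 65, 51.8, 14.1 and 18.4 FPKM in BCR-ABL1 replicates 0 to 3 and 111, 122, 51.4 and 48.3 FPKM in SHP2-null replicates 0 to 3. The groups overlapped because replicates 0 and 1 were higher than 2 and 3 in both, yet Cd74 was lower in the BCR-ABL1 library of all 4 pairs (limma adjusted p = 0.437, and 0.000199 with the replicate block). Cd74 was also called with array weights (0.0159).

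Socs3, a feedback inhibitor of cytokine receptors, read 3.93, 5.24, 8.54 and 7.41 FPKM in BCR-ABL1 cells and 7.67, 6.89, 12.9 and 10.1 FPKM in SHP2-null cells, lower in 4 of 4 pairs (limma adjusted p = 0.462, and 0.00899 with the block). Gfi1, a transcriptional repressor that STAT5 regulates and whose gene starts within 20 Mb of Ptpn11, was 1.51 ± 0.316 and 3 ± 1.29 FPKM (0.125 and 0.0493). These 2 were the block's calls among the 12 tested STAT5 targets, beside 2.6% of all tested genes called with the block (1.43% lower). Irs2, an insulin receptor adaptor under FOXO control, was lower at 0.647 ± 0.157 against 1.37 ± 0.266 FPKM (limma adjusted p = 0.0647, 0.0275 with the block, 0.0415 with quantile normalization and 0.0164 with array weights), and the FOXO target Ccng2 was higher at 28.9 ± 4.59 against 20.1 ± 4.03 FPKM (0.104 and 0.0194, and 0.0422 without SHP2-null replicate 1). The block also called Cd38, an ectoenzyme of activated B cells, as higher (0.0389), and Zbp1, a nucleic acid sensor induced by interferon, as lower (0.0103), with overlapping groups and the same direction in 4 of 4 pairs for both. It called Lyz2 as lower too (0.0225), with 1.90, 2.32, 5.98 and 6.87 FPKM in BCR-ABL1 cells and the values of 6.08 to 403 FPKM in SHP2-null cells given above.

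Some genes of the B-cell, CDK inhibitor and BCL2 family lists separated without overlap and were called neither with nor without the block. Cd24a, a surface marker of early B cells whose reads may be shared with pseudogene copies, was 1165 ± 136 FPKM in BCR-ABL1 cells and 894 ± 29.8 in SHP2-null cells (SD, n = 4; limma adjusted p = 0.197). Sox4, a transcription factor of B-cell progenitors, was 28.1 ± 1.66 and 22.3 ± 2.48 FPKM (0.185). Cdkn2b, a CDK inhibitor, was 1.33 ± 0.236 and 2.06 ± 0.527 FPKM (0.126), and Bok, a BCL2-family effector of cell death, was 2.43 ± 0.639 and 4.15 ± 0.725 FPKM (0.0705, and 0.0499 without SHP2-null replicate 2). With array weights all 4 of these were called, as were 819 of all 9993 tested genes, so those calls add little. Blk was 75.1 ± 5.89 and 47.5 ± 24 FPKM (0.396), with SHP2-null replicate 2 far below the other 3. Over all tested genes 540 (5.4%; 2.81% higher and 2.59% lower in BCR-ABL1 cells) had no overlap between the groups, so such separation alone was common.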

How the data were processed

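PolyA RNA of mouse pre-B cells was sequenced from both ends after stranded TruSeq library preparation, per the labels' protocols. The authors deposited FPKM values, with 1 column for each library and gene symbols as the only identifiers. Bowtie, Cufflinks and the build mm10 (GRCm38) appear per the submitters' processing notes. The sources used here do not give versions, annotation, or the handling of strand and shared reads. The table held 23758 entries for 23279 symbols, and 254 repeated symbols were summed. Summed FPKM ran from 362102 to 443702 in the 8 libraries compared. Rpph1, which is not polyadenylated, ran from 3047 to 16292 FPKM in BCR-ABL1 cells and from 4172 to 13463 in SHP2-null cells, and its part in the results was not tested.

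From these values, limma 3.58.1 (R 4.3.3) was fitted to log2(FPKM + 1) of 16 libraries with a mean for each of the 4 groups and a prior variance that followed the mean level, for genes that reached 1 FPKM in 4 or more of the 8 libraries compared. P-values were two-sided and adjusted by Benjamini-Hochberg, and an adjusted p below 0.05 was a call. The script was tested on simulated data. Alternatives changed the libraries fitted, the pseudocount, the filter, the scaling, the weights, the prior, the replicate block and single libraries. Deviations from the group means correlated at 0.50, 0.50, 0.18 and 0.49 between libraries of replicate number 0, 1, 2 and 3, so the numbers were taken to pair the libraries. The pairing comes from the data alone: per the labels' protocols 1 library of each group was loaded together, but no link between such a set and the replicate number is stated. Across groups, deviations of replicates 0 and 1 also correlated with each other (0.43 and 0.50), as did those of 2 and 3 (0.64 and 0.28). BCR-ABL1 replicate 2 went more with SHP2-null replicate 3 (0.64) than with SHP2-null replicate 2 (0.18). The correlations thus do not single out pairs by number, and the block fits and the counts of pairs rest on that pairing.

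The members and gene lists were chosen with earlier results of these data known. Named genes were Ptpn11, Abl1, Bcr, Il7r, the Myc and ERK genes, members of the lists with the smallest p, and the 15 largest rises and falls among called genes without overlap, except predicted, RIKEN, segment, small RNA and clone symbols (13 called genes). Some were left out for length, and 1 is not reported here. Positions are from GENCODE vM21, and sequences from RefSeq (GRCm38.p6), matched by symbol for 3 of 3 genes. Tables and figures were made in Python 3.11.15 with pandas 2.3.3, numpy 2.4.6 and matplotlib 3.10.9.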

Additional observations from a re-analysis of the deposited data

Results flagged for a closer look

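Among 110 groups of 4 libraries examined for 55 genes, 7 held a library whose gap to its nearest neighbour, as a share of the group's range, exceeded Dixon's critical value, which chance gives in about 1 of 20 groups. Lyz2 read 403 FPKM in SHP2-null replicate 2, against 6.08 to 34.3 FPKM in the other 3 libraries of its group. Cd68 read 12.4 FPKM in the same library, against 1.18 to 2.36. Abl1 read 15.8 FPKM in SHP2-null replicate 3, against 18.4 to 18.8, and Irs2 read 1.76 FPKM there, against 1.21 to 1.28. Dusp5 read 9.67 FPKM in BCR-ABL1 replicate 0, against 14.6 to 15.3, and Sla read 30.5 FPKM there, against 22.7 to 24. Zfp213 read 5.97 FPKM in BCR-ABL1 replicate 2, against 4.31 to 4.46.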

How the results depend on the processing

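The count of 100 genes stayed within 1.5 times under pseudocounts 0.1 and 0.5, no filter, a filter over all 16 libraries, both other scalings, no trend and the block fit of the 8 libraries (71 to 120 genes). The genes called were not all the same. Of the 120 without the filter 76 were among the 100, and of the 71 in the block fit of the 8 libraries 44 were. The other settings just named kept 94 to 100 of the 100. The count was 23 when only the 8 libraries were fitted, 33 with a mean of at least 5 FPKM, 819 with array weights and 260 with the replicate block. Leaving out 1 library at a time gave 43 to 90 genes. The share of Ptpn11 that remained ran from 30.8% to 39.7% without single libraries and was 34.4% with median-ratio scaling. Of the 52 genes examined, none that was called changed direction. Uncalled log2 differences that changed sign were those of Spry1 (-0.154 to 0.0723), Myc (-0.207 to 0.0592) and Mxd4 (-0.173 to 0.0484) without single libraries, Mxd4 with array weights (0.17), and SHP2 null minus wild type for Spry2 (-0.0158 to 0.0344 without single libraries, -0.0437 with quantile normalization, -0.0364 with array weights) and Epha2 (-0.163 to 0.0114 without single libraries). With the replicate block over 16 libraries, 11 of them gained a call and none lost one, and with the block over the 8 libraries alone 2 gained and 5 lost one. Without the block, fitting the 8 libraries alone lost 15 calls. The causes of these shifts were not tested. FPKM give no depth, so the counting error of genes near 1 FPKM is unknown.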
